A study of Mus musculus with 2 samples.

Results

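The variable (V) segments of the immunoglobulin heavy chain locus, Igh, were examined for accessible chromatin in mouse thymus. All GENCODE M21 genes on chromosome 12 typed as IG_V_gene or IG_V_pseudogene whose symbol begins with Ighv were taken, which gave 183 of the 55450 annotated genes. They comprised 113 genes and 70 pseudogenes in 16 families, where the family is the number after Ighv. Every one lies on the minus strand of the GRCm38 (mm10) assembly, between Ighv5-1 at chr12:113572927-113573402, nearest the D segments, and Ighv1-86 at chr12:116009659-116010093. The annotation gives 162 of them 2 exons, a leader exon and a V exon parted by a small intron, and 21 of them 1 exon.

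The data were DNase-seq, in which nuclei are treated with DNase I and the cut ends are sequenced, so that accessible DNA is cut most. There were 2 libraries of 1 group, thymus tissue from adult females of the F1 hybrid strain B6CASTF1/J, 18 to 20 months old. They carry separate biosample records but 1 donor record; whether they came from different animals is not stated, and their spread may therefore be only technical. No treatment, other genotype or second group was present, so no test between groups was possible and all values below are descriptions. Thymus was analysed as whole tissue, and a signal from few cells cannot be told apart from a weak signal in many cells. The hybrid carries a CAST copy of the locus, whereas the reference is built from B6; the effect of this on the values was not tested.

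V segments are joined to D and J segments by the RAG recombinase, which cuts at a recombination signal directly after each segment. The signal of an Ighv segment consists of a heptamer, a spacer and a nonamer. D to J joining at Igh takes place in developing T cells as well as B cells, whereas V to DJ joining and the antibody heavy chain belong to the B lineage. CTCF, a DNA-binding protein that stops cohesin and shapes chromatin loops, is known to bind beside the recombination signals of many V segments on the D-proximal side of the locus. RUNX factors are DNA-binding regulators used throughout T cell development.

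A total of 28 of the 183 segments (15.3%) had a peak of the shorter peak list within 500 bp in both libraries. Among genome windows of the same width, 1434 bp, the share was 2.11%, and among such windows of the V region that touched no segment or its flank it was 1.56%, or 21 of 1342. Replicate 1 had a peak at 38 segments, with 2.60% of genome windows called, and replicate 2 at 32, with 2.47%. With the longer lists, which hold weaker peaks too, 47 segments were called in both libraries, with 3.01% of genome windows and 2.38% of the V region windows called, and 115 segments had no peak in either. Footprints, short stretches protected from cutting inside accessible DNA, lay within 500 bp of 40 segments in both libraries, with 2.60% of genome windows and 1.94% of the V region windows called. By the same measure 0 of 22 D segments, 0 of 4 J segments and 0 of 8 constant segments had a shorter-list peak in both libraries, and 1 constant segment had one in replicate 2; so few segments cannot be set apart from the genome share.

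The accessible segments fell into 2 kinds by the sequence after their 3′ end, and the division was made after the peaks had been seen. In 72 segments the recombination signal, the first 39 bases after the segment, held the RUNX letters TGTGGT or their reverse complement. In 43 segments the 150 bases after the segment held the CTCF letters CCA, any 2 bases, AG, any 2 bases and GGC, with the last base left free, always on the strand of the segment. The CTCF and RUNX motifs were searched on both strands, no segment had both matches, and 68 had neither. Of the RUNX-matched segments 22 of 72 (30.6%) had a shorter-list peak in both libraries, of the CTCF-matched segments 4 of 43 (9.30%), and of the segments with neither match 2 of 68 (2.94%). The CTCF count rested on replicate 2, since replicate 1 alone called 12 of these segments; the RUNX count was 23 in replicate 1 and 26 in replicate 2.

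The sequences below show the CTCF-matched kind, read from the reference 5′ to 3′ on the strand of the segment, from the last 10 bases of the segment onward; capitals mark the recombination heptamer and the CTCF match. The first 4 segments had a peak in both libraries and are all those that did.
Ighv4-2 (chr12:114013069-114013153): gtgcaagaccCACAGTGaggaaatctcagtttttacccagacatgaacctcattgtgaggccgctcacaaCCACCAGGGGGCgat
Ighv11-1 (chr12:113981804-113981888): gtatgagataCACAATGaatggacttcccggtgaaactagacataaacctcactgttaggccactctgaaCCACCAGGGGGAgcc
Ighv2-6 (chr12:113716595-113716679): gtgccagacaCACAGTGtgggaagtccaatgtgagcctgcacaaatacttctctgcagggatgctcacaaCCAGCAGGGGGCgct
Ighv7-4 (chr12:114222713-114222797): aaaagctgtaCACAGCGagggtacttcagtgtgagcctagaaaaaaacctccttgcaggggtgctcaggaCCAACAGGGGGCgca
A pair of family 2 segments with the same arrangement had no peak in either list of either library.
Ighv2-2 (chr12:113588192-113588276): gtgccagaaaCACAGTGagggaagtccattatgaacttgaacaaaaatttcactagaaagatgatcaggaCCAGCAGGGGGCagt
Ighv2-5 (chr12:113685407-113685491): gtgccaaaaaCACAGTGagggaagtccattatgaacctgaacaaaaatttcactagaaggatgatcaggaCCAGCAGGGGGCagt

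The RUNX-matched kind is shown by its 6 segments with the highest mean signal; capitals mark the heptamer, the RUNX match inside the spacer (read here as ACCACA) and, where present, the ETS letters AGGAAG after the signal.
Ighv14-2 (chr12:113994399-113994478): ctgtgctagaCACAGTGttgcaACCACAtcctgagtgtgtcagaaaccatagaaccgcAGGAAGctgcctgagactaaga
Ighv1-12 (chr12:114615780-114615859): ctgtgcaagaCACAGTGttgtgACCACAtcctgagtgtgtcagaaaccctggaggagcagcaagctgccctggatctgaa
Ighv1-11 (chr12:114612173-114612252): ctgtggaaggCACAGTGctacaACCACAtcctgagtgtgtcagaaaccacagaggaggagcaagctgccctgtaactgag
Ighv1-10 (chr12:114597819-114597898): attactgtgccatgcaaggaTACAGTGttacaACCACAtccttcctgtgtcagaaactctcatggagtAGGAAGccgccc
Ighv1-54 (chr12:115193605-115193684): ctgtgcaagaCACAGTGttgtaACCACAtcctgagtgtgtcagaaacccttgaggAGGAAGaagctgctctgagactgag
Ighv1-85 (chr12:115999958-116000037): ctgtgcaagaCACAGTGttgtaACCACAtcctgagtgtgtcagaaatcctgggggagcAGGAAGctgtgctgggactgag
The first segments in locus order that were genes of family 1, had an exact heptamer and a RUNX match, yet no peak in any list, differ little from these.
Ighv1-5 (chr12:114513260-114513339): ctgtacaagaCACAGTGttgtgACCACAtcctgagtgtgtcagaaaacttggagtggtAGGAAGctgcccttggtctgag
Ighv1-7 (chr12:114538425-114538504): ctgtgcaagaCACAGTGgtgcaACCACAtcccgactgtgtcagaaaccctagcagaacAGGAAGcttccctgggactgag

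Family membership went with the kind of sequence. Family 1, the largest family, had 92 members and occupied the locus from 778.8 kb past Ighv5-1 to its far end; 64 of them carried the RUNX match and 0 the CTCF match. In this family 20 of 92 segments (21.7%) had a peak in both libraries. Families 9 and 14, with 8 members of which 7 carried the RUNX match, had 4 such segments. The CTCF match was found in all members of families 4, 7, 11 and 13, in 7 of 11 members of family 2, in 7 of 8 of family 3, in 10 of 21 of family 5, in 4 of 7 of family 6, in 3 of 4 of family 10 and in 2 of 3 of family 12. Of these, families 2, 4, 7 and 11 had 1 segment each with a peak in both libraries, and the others had 0. Family 5, with 21 members, family 8, with 16, and family 3, with 8, had 0 segments with a peak in both libraries. Family 3 had no peak in the longer list of either library, although 7 of its 8 members carried the CTCF match.

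**Figure D1:**
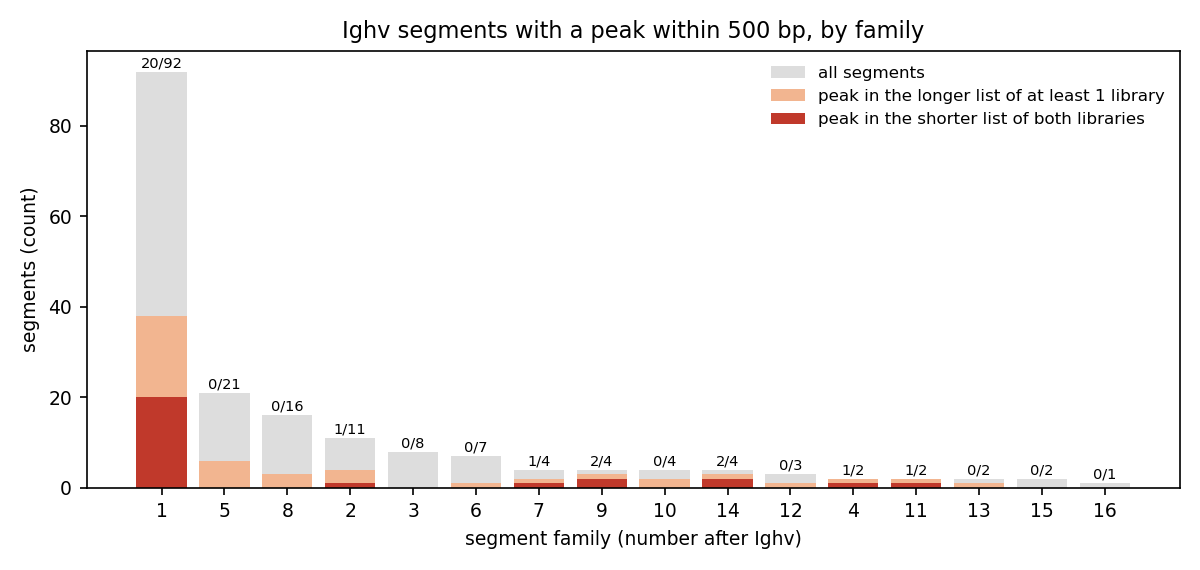
Number of Ighv segments per family (bars, count), with those that had a longer-list peak within 500 bp in at least 1 library and those with a shorter-list peak in both; labels give the last as a share of the family. Family 1 holds 20 of the 28 accessible segments, and families 3, 5, 6, 8, 10, 12, 13, 15 and 16 hold 0.

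Along the locus, segments were counted in bins of 250 kb from Ighv5-1. In order, the first 5 bins had 1 of 25, 4 of 19, 3 of 19, 1 of 22 and 4 of 25 segments with a peak in both libraries. The next 5 had 2 of 22, 3 of 12, 0 of 13, 4 of 12 and 6 of 14. The bins hold few segments and their differences were not tested. In the bin with 0 of 13, between 1750 and 2000 kb, 9 segments carried the RUNX match. This was also the bin with the lowest median share of unique 36-base words in the segments and their flanks, 48.0%, against 75.7% over all segments. Within 100 bp of the 3′ end, however, the median share was 36.4% in this bin and 38.2% in the last bin, which had 6 of 14. How reads that match several segments were placed is not given in the sources used here, and the part of this in the bin without a peak was not tested. Ighv5-1, at the D-proximal end, had no peak and no footprint in either library, whereas Ighv1-86, at the other end, had signals of 0.814 and 0.757.

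**Figure D2:**
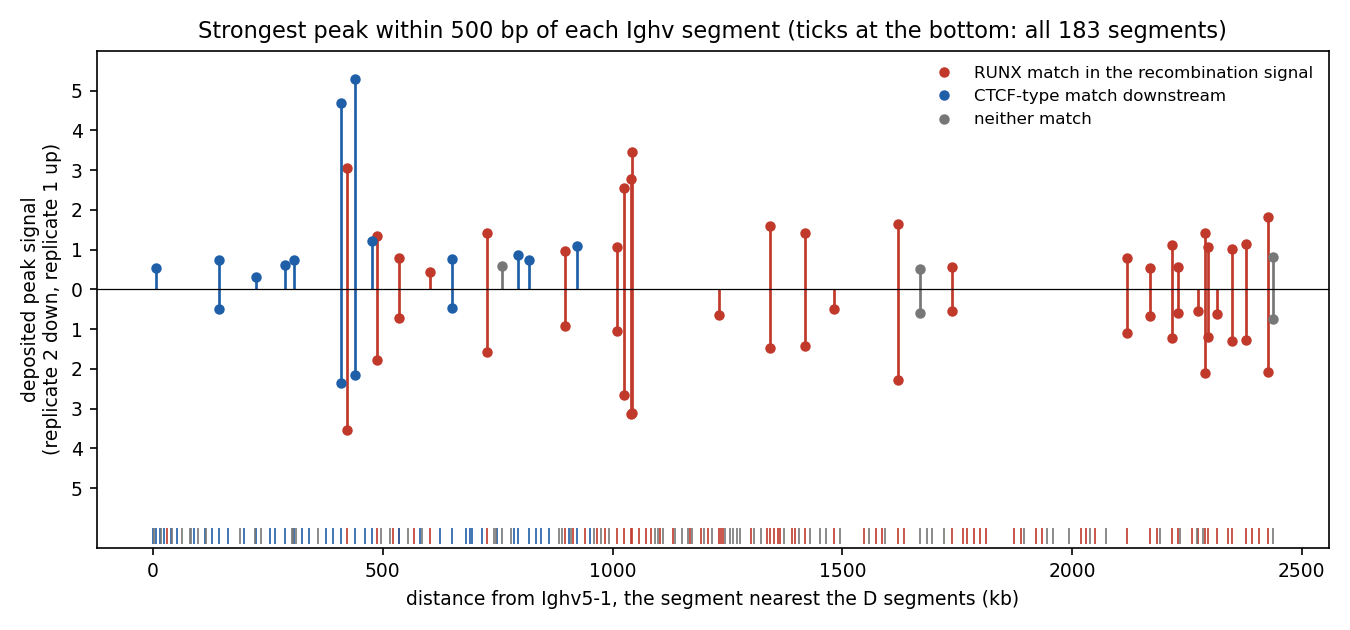
Deposited signal of the strongest shorter-list peak within 500 bp of each segment (replicate 1 upward, replicate 2 downward) against distance from Ighv5-1 in kb; ticks mark all 183 segments and colours the sequence match. Peaks of CTCF-matched segments lie within the first 1000 kb, and those called in replicate 1 only have no lower stem. Peaks of RUNX-matched segments continue to the far end. Peaks more than 500 bp from a segment are not drawn.

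The strongest peaks of the CTCF-matched kind stood at a pair of segments 409 and 440 kb from Ighv5-1. Ighv4-2, a pseudogene, had a signal of 5.30 in replicate 1 and 2.16 in replicate 2 (mean 3.73 ± 2.22, SD, n = 2). Ighv11-1, a gene, had 4.70 and 2.35 (3.53 ± 1.66). Both were higher in replicate 1, by log2 ratios of 1.12 and 0.82 after subtracting the median of all shared peaks. The remaining 2 of this kind were weak: Ighv2-6 had 0.743 and 0.496, and Ighv7-4 had 0.752 and 0.463. For comparison, the median shorter-list peak of the whole library had a signal of 1.66 in replicate 1 and 1.43 in replicate 2.

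Between these lay Ighv14-2, which had the highest mean signal of the RUNX-matched kind, 3.06 and 3.53 (3.29 ± 0.331). Its relative Ighv14-3 had 1.33 and 1.79, and Ighv14-4 had a shorter-list peak in replicate 1 only, at 0.430. In family 9, Ighv9-4 had 1.42 and 1.57 and Ighv9-2 had 0.787 and 0.711. The order within each of these families was the same in both libraries.

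A run of 3 neighbours in family 1, at 1025 to 1043 kb from Ighv5-1, formed the strongest group in that family. Ighv1-12 had 3.45 in replicate 1 and 3.10 in replicate 2, Ighv1-11 had 2.77 and 3.14, and the pseudogene Ighv1-10 had 2.54 and 2.65. The values of Ighv1-12 and Ighv1-11 overlapped between libraries, so their order is not resolved, and Ighv1-10 was the lowest of the 3 in both. At Ighv1-12 there were 2 peaks: one over the 3′ end, with 2.64 and 3.10, and one centred 470 and 480 bp downstream, with 3.45 and 2.29, so that the strongest peak was not the same one in both libraries. No other accessible segment had its peak so far downstream. The next segments of family 1 were Ighv1-54 (1.65 and 2.28), Ighv1-85 (1.83 and 2.08), Ighv1-77 (1.40 and 2.11), Ighv1-39 (1.58 and 1.47) and Ighv1-47 (1.42 and 1.43). The rest of the accessible segments of family 1, with Ighv1-82 (1.15 and 1.29) and Ighv1-73 (1.13 and 1.21) at the top, ranged down to Ighv1-56, with 0.501 and 0.587. Over all 28 segments the median signal was 1.14 in replicate 1 and 1.29 in replicate 2, below the library medians.

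The libraries differed by kind of segment. All 4 CTCF-matched segments with a peak in both libraries were higher in replicate 1, also by deposited signal, with a median centred log2 ratio of 0.67 and a range of 0.41 to 1.12. All 22 RUNX-matched ones were lower in replicate 1 relative to the median of all shared peaks, with a median centred log2 ratio of -0.33 and a range of -0.76 to -0.02; the largest of these differences were at Ighv1-77, Ighv1-70 and Ighv1-54, and the smallest, at Ighv1-12, compares different peaks. By the signal as deposited, 6 of the 22 were higher in replicate 1. The 2 ranges did not overlap. The same direction was seen over shared peaks of the whole genome: the median centred log2 ratio was 0.52 for 5357 peaks with a CTCF match and -0.16 for 6838 with a RUNX match and no CTCF match. Of the 10 segments called in replicate 1 only, 10 lay outside family 1 and 8 carried the CTCF match. The others were Ighv14-4, which is RUNX-matched and had 0.430 in replicate 1 and 0.313 in the longer list of replicate 2, and Ighv8-1, which had neither match. The strongest of the 10 were Ighv11-2, with 1.22, and Ighv10-2, with 1.10. Of the 4 called in replicate 2 only, 4 were RUNX-matched members of family 1, with signals from 0.489 at Ighv1-49 to 0.639 at Ighv1-27. Most of these were present in the longer list of the other library, 9 of the 10 and 3 of the 4. The cause of the difference between the libraries was not tested.

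**Figure D3:**
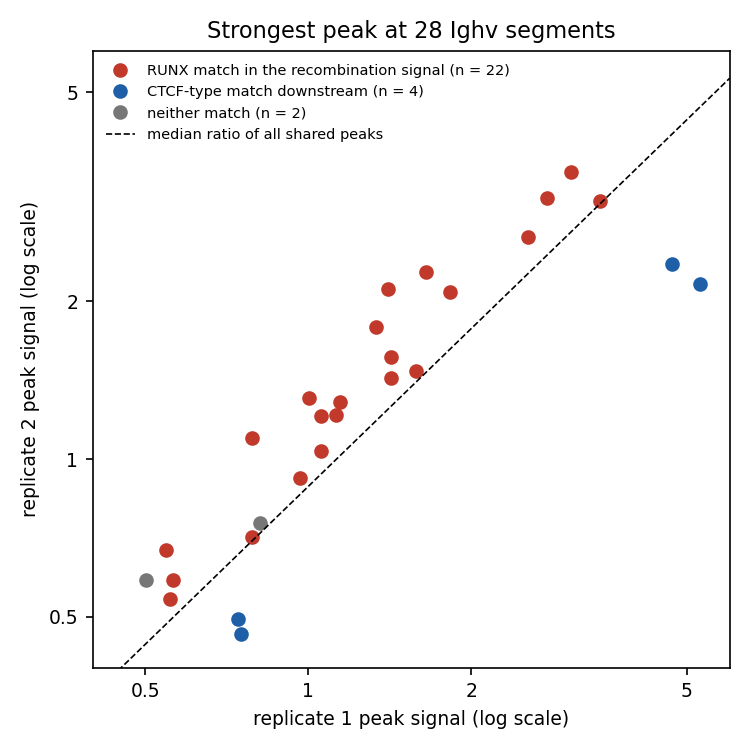
Signal of the strongest peak in replicate 1 (x axis, log scale) and replicate 2 (y axis, log scale) for the 28 segments with a peak in both, coloured by sequence match, with the median ratio of all shared peaks as a dashed line. The 4 CTCF-matched segments lie below the line, and the 22 RUNX-matched ones and the 2 with neither match above it.

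Within the 500 bp flanks, accessibility was mostly at the end of the segment that carries the recombination signal. Of the 39 shorter-list peaks near segments in replicate 1, 36 (92.3%) were centred within 100 bp of the 3′ end, and of the 36 in replicate 2, 29 (80.6%). No centre of these peaks, which touched a segment or its 500 bp flanks, lay upstream of a segment in either library. Farther out, peaks with a CTCF match lay 720 bp upstream of Ighv1-74 in both libraries and 725 bp upstream of Ighv1-69 in replicate 1. In the longer lists 0 of 61 centres lay upstream in replicate 1 and 3 of 61 in replicate 2. The octamer ATGCAAAT of immunoglobulin promoters, on either strand, was nonetheless present in the 500 bp before 130 of the 183 segments. It was present before 22 of the 28 accessible ones. The strongest peak of the 28 accessible segments was centred in an exon of the segment in 15 cases in replicate 1 and 18 in replicate 2, in the intron in 0 and 1, and after the segment in the rest. Outside family 1 the median centre was 54 bp after the 3′ end over 18 peaks in replicate 1 and 25.5 bp over 8 in replicate 2. At the 8 segments there with a peak in both libraries it was 35 and 25.5 bp. These pool the CTCF-matched segments, at 71 and 55 bp, with families 9 and 14, at 1.5 and 1.5 bp. In family 1 the median centre was at -15 bp, inside the segment, in replicate 1 and at -37.5 bp in replicate 2. Ighv1-86 was an exception, with its peak inside the segment at positions -281 and -320 from the 3′ end, and so was Ighv1-71, whose peak was centred 226 and 166 bp downstream. At the 3′ end of Ighv1-71 only 7.27% of 36-base words were unique in the assembly.

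The base-by-base false discovery lists gave the same placement without peak calls. They come from the same libraries as the peaks and are no independent check. The share of segments with a q-value of at most 0.05 was highest at base -16, just inside the segment, in replicate 1, with 27.9%, and at base 14 after it in replicate 2, with 26.8%. Within 500 bp, 60 segments had such a base in replicate 1 and 60 in replicate 2, and 50 of them in both.

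**Figure D4:**
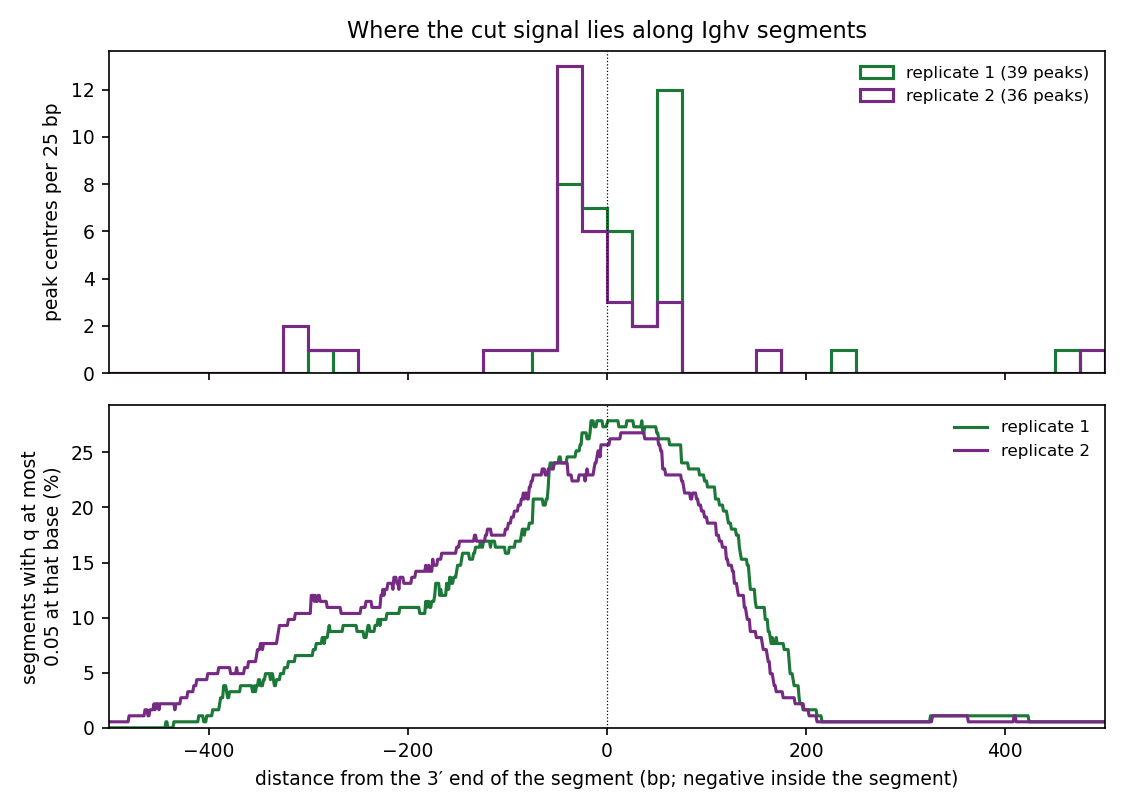
Distance from the 3′ end of the segment in bp (negative inside the segment) against the number of shorter-list peak centres per 25 bp (top) and the percentage of the 183 segments with a q-value of at most 0.05 at that base (bottom), by library. Peak centres crowd around the 3′ end, where the lower curves reach 27.9% and 26.8%.

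V segments of the T cell receptor loci, which are rearranged in this organ, were placed otherwise. Of the Tcra and Tcrd V segments 36 of 136 (26.5%) had a shorter-list peak in both libraries, and of the Tcrb V segments 7 of 35 (20.0%). In Tcra and Tcrd, 32.2% and 31.5% of the peaks near segments were centred within 100 bp of the 3′ end and 33.9% and 33.3% within 100 bp of the 5′ end. At Igh the corresponding shares at the 5′ end were 0 of 39 and 0 of 36 peaks. Of the V segments of the Igk light chain locus on chromosome 6, 0 of 176 had a peak in either list in both libraries. With 1 group of 2 libraries these differences between loci were not tested.

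Footprints placed protected bases over the matched letters in part of the segments. Among the 4 accessible CTCF-matched segments, a footprint touched the match in 4 in replicate 1 and 3 in replicate 2, the same 3 in both being Ighv11-1, Ighv2-6 and Ighv4-2. A further footprint lay at 110 to 150 bp downstream in 4 segments in replicate 1 and 3 in replicate 2. Among the 22 accessible RUNX-matched segments, a footprint touched the RUNX match in 10 in replicate 1 and 11 in replicate 2, and in 6 in both: Ighv1-39, Ighv1-58, Ighv1-73, Ighv1-85, Ighv14-3 and Ighv9-2. Counted at single bases, at most 11 segments of this kind in each library had a footprint in bases 8 to 39 after the segment. The bases of the V exon were footprinted about as often, in at most 12 and 9 segments at a single base within the last 50 bp. The first 7 bases after the segment, the usual place of the heptamer beside which RAG cuts, were footprinted in at most 1 and 3 of the 22 at any base. The segments with the most footprints were Ighv1-12 (5 and 6), Ighv14-2 (3 and 7), Ighv1-70 (5 and 5), Ighv1-77 (3 and 7) and, with equal means, Ighv1-10 (4 and 5), Ighv1-39 (5 and 4) and Ighv1-85 (4 and 5). Each footprint carries the same deposited value, 0.01, so footprints could not be ranked.

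**Figure D5:**
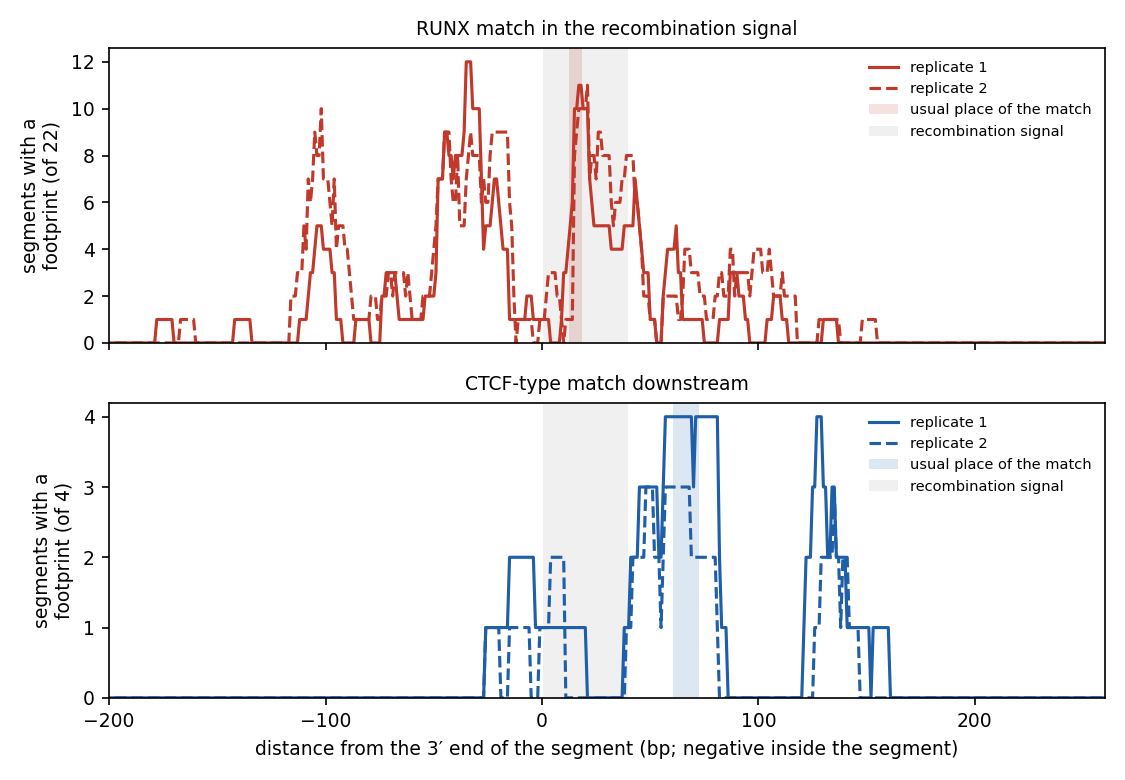
Number of accessible segments with a footprint over each base, against distance from the 3′ end in bp, for RUNX-matched (top, of 22) and CTCF-matched segments (bottom, of 4); grey marks the recombination signal, colour the usual place of the match. In the RUNX-matched kind the highest points are 12 in replicate 1 and 11 in replicate 2, and in the CTCF-matched kind 4 and 3.

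The RUNX letters started at base 13 after the segment in 65 of the 72 RUNX-matched segments and in 21 of the 22 accessible ones. Of the 115 segments with no peak in either longer list, 31 carried the letters in the signal, 25 of them at base 13. The exact CTCF letters were likewise present in 31 segments, of which 16 had no peak in either longer list. An ETS match between bases 40 and 70 was present in 25 of the RUNX-matched segments, of which 12 were accessible, against 10 of the 47 without it. Of the shorter-list peaks near segments, 59.0% in replicate 1 and 69.4% in replicate 2 held the RUNX letters in a window of 300 bp about the centre, against 21.2% and 21.8% of all peaks. The exact CTCF letters were held by 23.1% and 11.1%, against 16.1% and 11.5% of all peaks. Some letters were rarer near segments than in all peaks, such as CTTTGA of TCF7 and LEF1, with 5.13% and 0% against 16.3% and 16.7%, and the E-box CAGGTG, with 12.8% and 16.7% against 29.3% and 30.3%. The GATA letters AGATAA were more frequent, with 15.4% and 13.9% against 8.54% and 8.24%, which is 6 of 39 and 5 of 36 peaks. Members of a family share their sequence by descent and are not independent, so these shares are descriptions.

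Genes were accessible more often than pseudogenes, in 22 of 113 (19.5%) and 6 of 70 (8.57%) cases. Within the RUNX-matched kind the counts were 18 of 47 genes and 4 of 25 pseudogenes. The recombination signal was compared with heptamer CACAGTG and nonamer ACAAAAACC, with a spacer of 22 to 24 bases, starting within 20 bp of the 3′ end. The median number of mismatches was 2 in genes and 3.5 in pseudogenes, and 25 of the 28 accessible segments had an exact heptamer, against 59 of the 115 with no peak in any list. Of the 61 segments with under 50% unique 36-base words within 100 bp of the 3′ end, 10 had a peak in both libraries, and of the 122 with more, 18. Within the RUNX-matched kind the counts were 8 of 32 and 14 of 40, and within family 1 they were 7 of 40 and 13 of 52. The part of read placement in these counts was not tested.

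Outside the segments, the V region held its strongest peak between segments, 3.3 kb from Ighv1-9, at chr12:114587341-114587540 in replicate 1, with a signal of 7.15, and 5.02 for the overlapping peak of replicate 2. It held a CTCF match and a RUNX match. A peak of 2.77 and 3.12, 2.7 kb from Ighv1-11, held neither. Peaks with a CTCF match also lay just beyond the 500 bp flanks of family 1 segments in the far part of the locus. Among them, those 735 bp from Ighv1-65 (2.03 and 1.32) and 720 bp upstream of Ighv1-74 (1.31 and 0.711) were called in both libraries. So was a weaker peak 703 and 727 bp from Ighv1-62-3 (0.483 and 0.352). Others, such as that 725 bp upstream of Ighv1-69 (1.19), were called in replicate 1 only. Segments with their 500 bp flanks covered 10.7% of the V region and had 39 of its 73 shorter-list peaks in replicate 1 and 36 of 58 in replicate 2.

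Genes known for Igh rearrangement, locus structure or transcription were mostly open at their promoters. A shorter-list peak lay within 1 kb of a start site in both libraries for 35 of 38 of them, where 54.0% of protein-coding genes were called; the exceptions were Pax5, the B lineage regulator, and Dntt, which adds bases at joints, each with a peak in replicate 2 only (0.744 and 1.66), and Spi1, with none. T cell markers were open in 18 of 20 cases, the other two, Cd4 and Cd2, being called in replicate 2 only. B cell markers were open in 6 of 15 cases, with a summed signal of 14.5 in replicate 1 and 17.0 in replicate 2; Cd79a, Cd79b, Vpreb1, Igll1, Cd22, Fcer2a and Spib had no promoter peak in either library, Ms4a1 had one in replicate 2 only (0.554), as did Pax5, and Ebf1 (4.19 and 3.91), Cr2, Pou2af1, Cd37, Blk and Bank1 did. The part of B cells in the signal at Igh was not tested.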

How the data were processed

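The authors deposited, per library, 2 peak lists with 1 signal value per peak of no stated scale, footprints, and base runs with false discovery q-values (0 to below 0.05), on mm10 per the file headers and labels. The peak caller, the aligner and the depth: not given in the sources used here. Footprint values are the constant 0.01. All signals were whole multiples of a step, 0.00895 in replicate 1 and 0.00652 in replicate 2 (tolerance 0.1 steps), and the accessible segments held a median of 127 and 198.5 steps. The shorter list was the main list.

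Peaks and footprints counted for a segment if they touched it or its 500 bp flanks by at least 1 bp; the strongest peak gave its signal. Distances are from peak centre to the 3′ end. Motifs and 36-base words were searched in GRCm38 (65 assembly records). Genome windows without unknown bases gave the background. Named segments were the 15 with the highest mean signal, the strongest per family, the 5 differing most between libraries, the 5 with most footprints, accessible members of small families, both ends of the locus and those nearest the flank limit. Members, lists and rules were chosen with earlier results of these data known; the RUNX and CTCF kinds, and the RUNX sequences printed, were chosen after seeing the peaks. Nearest the limit lay a peak of Ighv1-12, 389 bp away in both libraries, and outside it a longer-list peak 629 bp from Ighv1-55, with a signal of 0.564 in replicate 1. In the shorter list that peak lay 695 bp from Ighv1-55. Scripts were tested on simulated intervals and ran in Python 3.11.15 with numpy and pandas. Alternatives were other flanks, lists, windows, word lengths, and each library alone. 1 gene of the B cell marker list is not reported here.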

Additional observations from a re-analysis of the deposited data

How the results depend on the processing

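The number of segments with a peak in both libraries was 28, 27 to 30 with flanks of 100 to 1000 bp, 47 with the longer lists and 7 with the stronger 50% of peaks. It was 32 and 38 from replicate 2 and replicate 1 alone. For RUNX-matched segments, chosen after seeing the data, it was 22, 32 with the longer lists and 5 with the stronger 50% of peaks. For the CTCF-matched ones it was 4, 12 with the longer lists, 2 with the stronger peaks and 4 to 12 with 1 library left out. For those with neither it was 2, 3 with the longer lists and 0 with the stronger peaks. The share of peak centres within 100 bp of the 3′ end was 86.4% ± 8.31 (SD, n = 2), 73.0% with flanks of 1000 bp and 80.6% to 92.3% with 1 library left out. Peaks with a CTCF match made up 17.1%, and 26.3% with the last base free, a base chosen after the sequences were seen. The median signal was 1.19, and 1.34 when the peaks of a segment were summed, 5.74 instead of 3.28 at Ighv1-12. The median share of unique words was 75.7%, and 58.8%, 88.9% and 97.4% with 24, 50 and 76 bases. No paired analysis was possible because there was 1 group. Depth is unknown, so a segment without a peak is only below what these lists call.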
